A study of Mus musculus with 12 samples.

Results

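The transcripts described here are the curated noncoding transcripts of RefSeq on a mouse long noncoding RNA array. They were chosen as every probe outside the controls whose name holds the NR_ prefix of a curated noncoding RefSeq record. Of 873 such probes, 4 were set aside by the rule, which left 869 of the 97836 probes outside the controls. By their record numbers, 838 of the 869 matched a gene in RefSeq's table, under 805 symbols, and 31 matched none. RefSeq classes the genes of 648 probes as long noncoding RNA, of 146 as transcribed pseudogene and of 36 as protein-coding, the last being noncoding variants of coding genes. Their annotated span overlapped that of a coding gene for 331 probes.

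The RNA came from cultured vascular smooth muscle cells of male mice. One genotype was Hif1afl/fl, called floxed below, in which both Hif1a alleles carry loxP sites, and the other was Hif1a△SMC, called deleted below, with smooth-muscle-specific disruption of HIF1α. Each genotype received 150 µM CoCl2 or the same volume of PBS for 24 hours, and each of the 4 groups was measured on 3 one-colour arrays. The Cre line, the age of the mice, the vessel and the origin of replicate arrays, from different mice or from 1 culture, are not given in the sources used here, so the p-values measure the spread between these arrays, which may be technical. CoCl2 inhibits the prolyl hydroxylases that mark HIF1α for breakdown, and the comparisons ask how these cells respond to it with and without HIF1α.

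Long noncoding RNAs are transcribed and often spliced like messenger RNAs but are not known to encode proteins. Some act in the nucleus near their own gene, as many antisense and imprinted transcripts do. Others host small nucleolar RNAs or microRNAs in their introns, and others bind proteins in the cytoplasm. In smooth muscle, the lncRNA Carmn, whose locus also gives rise to the microRNAs miR-143 and miR-145, is a marker of the contractile state. HIF-1 binds DNA at short elements whose core is ACGTG or GCGTG.

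The promoters of 6 transcripts are shown because these transcripts carry the patterns described below: Gm38426, which rose with CoCl2 in both genotypes, Lncpint, which rose in deleted cells, Firre and Snhg16, which were higher in deleted than in floxed cells under CoCl2, and Kcnd3os and Nctc1, which were lower there. The sequences are RefSeq's (GRCm38.p6), from 250 bases before to 50 bases after the annotated start, 5′ to 3′ on the transcript's strand. Capitals mark ACGTG and GCGTG and also the reverse complements of both, CACGT and CACGC. The letters CACGTG hold 2 of these overlapping matches, one on each strand.
Gm38426 promoter: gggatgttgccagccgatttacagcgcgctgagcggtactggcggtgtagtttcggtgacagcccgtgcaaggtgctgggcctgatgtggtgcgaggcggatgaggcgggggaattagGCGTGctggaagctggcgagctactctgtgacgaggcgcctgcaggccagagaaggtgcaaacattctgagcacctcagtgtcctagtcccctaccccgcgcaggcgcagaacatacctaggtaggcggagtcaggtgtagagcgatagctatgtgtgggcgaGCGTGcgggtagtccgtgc
Lncpint promoter: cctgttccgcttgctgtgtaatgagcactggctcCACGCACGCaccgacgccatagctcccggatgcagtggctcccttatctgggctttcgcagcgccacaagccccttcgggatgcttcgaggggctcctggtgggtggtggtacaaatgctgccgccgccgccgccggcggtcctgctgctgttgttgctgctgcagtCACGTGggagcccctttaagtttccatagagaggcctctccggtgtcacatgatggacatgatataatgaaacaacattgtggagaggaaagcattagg
Firre promoter: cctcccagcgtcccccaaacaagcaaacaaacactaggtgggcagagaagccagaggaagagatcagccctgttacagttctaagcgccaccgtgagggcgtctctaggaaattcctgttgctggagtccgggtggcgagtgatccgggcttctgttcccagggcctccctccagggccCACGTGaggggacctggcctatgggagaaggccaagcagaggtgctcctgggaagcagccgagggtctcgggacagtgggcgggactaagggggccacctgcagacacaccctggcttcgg
Snhg16 promoter: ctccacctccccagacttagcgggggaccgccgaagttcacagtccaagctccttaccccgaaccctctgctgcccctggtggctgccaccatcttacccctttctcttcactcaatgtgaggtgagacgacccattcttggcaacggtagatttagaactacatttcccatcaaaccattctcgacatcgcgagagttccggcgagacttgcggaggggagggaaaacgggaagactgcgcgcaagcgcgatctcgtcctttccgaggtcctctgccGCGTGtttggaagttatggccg
Kcnd3os promoter: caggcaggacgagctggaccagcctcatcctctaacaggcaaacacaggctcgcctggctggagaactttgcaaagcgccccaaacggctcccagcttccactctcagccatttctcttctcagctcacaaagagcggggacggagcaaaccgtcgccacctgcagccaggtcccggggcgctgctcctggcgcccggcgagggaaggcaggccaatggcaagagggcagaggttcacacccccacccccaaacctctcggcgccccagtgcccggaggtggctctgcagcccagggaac
Nctc1 promoter: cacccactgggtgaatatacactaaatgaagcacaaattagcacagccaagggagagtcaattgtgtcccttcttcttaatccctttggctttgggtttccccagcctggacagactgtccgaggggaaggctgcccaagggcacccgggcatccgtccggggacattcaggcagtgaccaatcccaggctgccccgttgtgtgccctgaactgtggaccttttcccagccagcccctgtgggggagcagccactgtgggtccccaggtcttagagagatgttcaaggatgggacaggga
These lie on the plus strand of chr8:84913085-84913384, the minus strand of chr6:31218425-31218724, the minus strand of chrX:50635272-50635571, the plus strand of chr11:116671410-116671709, the minus strand of chr3:105452906-105453205 and the minus strand of chr7:142558549-142558848. The number of matches was 2 in the Gm38426 promoter, 4 in the Lncpint promoter, 2 in the Firre promoter and 1 in the Snhg16 promoter, and 0 in those of Kcnd3os and Nctc1. A match is a description of the letters and not evidence of binding.

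The spans of 17 of the genes hold microRNA genes, 50 mature microRNAs in all. The array measured the host transcript and not the microRNA. The sequences below are those within hosts whose values are given later, with the seed, bases 2 to 8, in capitals.
miR-1a-1-5p: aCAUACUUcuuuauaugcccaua
miR-101a-3p: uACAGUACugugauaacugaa
miR-27b-3p: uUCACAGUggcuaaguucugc
miR-24-3p: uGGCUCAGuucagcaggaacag
let-7c-5p: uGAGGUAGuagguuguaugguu
let-7b-5p: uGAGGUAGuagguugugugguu
The first lies within Mir1a-1hg and miR-101a-3p within E130102H24Rik. Aopep holds miR-27b-3p and miR-24-3p. Lncppara holds both let-7 microRNAs, which share the seed GAGGUAG.

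All levels below are log2 signal minus the 75th percentile of that array, so a probe at 0 is brighter than 75% of the array's probes and a difference of 1 is 2-fold. Levels of different probes cannot be compared with each other. The arrays of deleted cells under CoCl2 stood apart from the other 9. Their 75th percentile of log2 signal was 8.09 to 8.28, against 9.02 to 9.52 on the others, and 51.9% to 58.5% of all probes were well above background, against 67.7% to 82.7%. They shared a slide with array 3 of deleted cells under PBS, and array 2 of the group was scanned 4 days after the first scans of the series. Deletion of Hif1a itself was not checked, since no probe could be matched to its transcript. The part of signal loss, slide and scan in the results below was not tested beyond the fits that are given.

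Detection of the noncoding transcripts was lowest in deleted cells under CoCl2. There, 331, 401 and 325 of the 869 probes were well above background on arrays 1, 2 and 3, or 37.4% to 46.1%. In floxed cells 581, 554 and 524 were detected under PBS and 512, 671 and 607 under CoCl2, and in deleted cells under PBS 570, 551 and 583. All 3 arrays of a group detected 511 probes in floxed PBS cells, 504 in floxed CoCl2 cells, 525 in deleted PBS cells and 290 in deleted CoCl2 cells. On all 9 arrays of the other groups but on none of deleted CoCl2 cells, 98 probes were detected, and the reverse was seen for 0. The same count over all probes was not made, so these numbers are not read as particular to the noncoding transcripts. Detection of all probes was lower on those arrays too (51.9% to 58.5%, against 67.7% to 82.7%). Detection on every one of the 12 arrays held for 284, and on no array for 168. Fewer cells of a type and less RNA per cell cannot be told apart in such bulk samples.

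**Figure D1:**
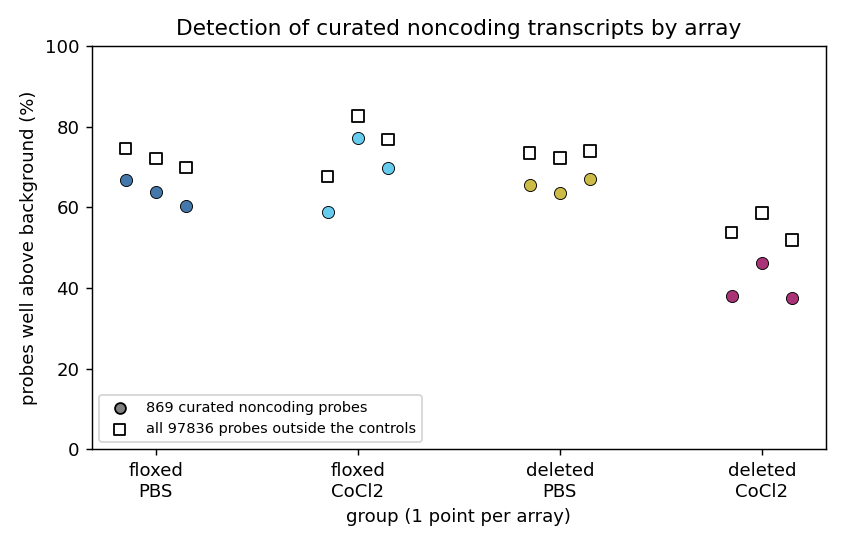
Percentage of probes well above background on each array (vertical axis) by group, with filled circles for the 869 curated noncoding probes and open squares for all 97836 probes outside the controls. On the 3 deleted CoCl2 arrays the noncoding probes sat between 37.4% and 46.1%, below all other arrays.

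A probe entered the test if any group detected it well above background on its 3 arrays. This left 556 of the 869 (64.0%), against 72.5% of all probes, while 145 more were detected on some arrays only. Since a probe could pass through 1 group alone, the counts below describe the tested probes and not all 869. The defining smooth muscle transcript Carmn was well above background on all 12 arrays. It read 0.49, 0.91 and 0.78 in floxed PBS cells, 0.70, 0.52 and 0.55 in floxed CoCl2 cells, 0.97, 1.16 and 0.58 in deleted PBS cells, and 0.43, 0.72 and 0.06 in deleted CoCl2 cells. These groups overlapped, and no comparison of Carmn passed the threshold (adjusted p = 0.062 for CoCl2 in deleted cells). Of the prepared markers of other cell types, the mesenchymal Fendrr and Meg3 and the cardiac Mhrt could be tested and are given below. The neural Sox2ot did not pass the filter, and the array's noncoding records held 0 of the endothelial, leukocyte, adipocyte and germ cell markers.

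In floxed cells, few noncoding transcripts passed the threshold with CoCl2. Of the 556 tested, 13 rose and 10 fell at an adjusted p under 0.05 (limma, Benjamini-Hochberg over all 70909 tested probes), where 4.94% of all tested probes were called, 2.21% higher and 2.73% lower. Their median change was 0.01, as was that of all tested probes. At an unadjusted p under 0.05 (limma), 88 of the 556 differed. The test pooled the spread of all 12 arrays, and the noncoding probes' median SD was 0.36 in deleted CoCl2 cells. In floxed PBS and CoCl2 cells it was 0.19 and 0.25. The low count is therefore not read as little change, and the part of this spread in it was not tested. CoCl2 array 1, the only one on a slide with floxed PBS arrays, lay beyond all 3 PBS arrays in the called direction for each of the 23, which were called with that array in the fit. With the slide as a fixed block 2 probes were called. Same-numbered floxed arrays deviated together, and with the array number as a block within each genotype 12 rose and 18 fell, 19 of these 30 being among the 23. Without floxed PBS array 1, 2 or 3 the count was 9, 8 and 9, and without floxed CoCl2 array 2 or 3 it was 10 and 2. Scaled to the spiked E1A control probes above background, the split turned from 13 higher and 10 lower to 2 higher and 13 lower.

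The rises shown here were singled out after their values were seen. The largest belonged to a record without a symbol in RefSeq's table, which read -3.92, -3.42 and -4.77 under PBS, where 2 of 3 arrays were above background, and -2.81, -2.43 and -2.59 under CoCl2. It rose by 1.43 ± 0.28 (adjusted p = 0.016). Others carry clone or model names. Gm38426, a transcript overlapping the kinase gene Mast1, read -1.09, -1.12 and -1.27 under PBS and -0.40, 0.04 and -0.01 under CoCl2. The 2 sets of floxed arrays did not overlap, and the transcript rose by 1.04 ± 0.20 (SE), or 2.05-fold (adjusted p = 0.015, n = 3 and 3 arrays, limma). 4930556M19Rik, which overlaps Rai14, read 1.81, 2.17 and 2.28 under PBS and 2.72, 3.34 and 3.57 under CoCl2, a rise of 1.12 ± 0.25 (adjusted p = 0.024). Gm12505 rose by 1.28 ± 0.30 (adjusted p = 0.036), from -3.33, -3.33 and -3.36 to -1.98, -2.14 and -2.07. No transcript with an established symbol rose past the threshold. Lncpint, a p53-induced lncRNA, came near it, with 1.80, 2.23 and 1.72 under PBS and 2.60, 2.99 and 2.83 under CoCl2, a difference of 0.89 ± 0.23 (adjusted p = 0.051), and it passed with the array number as a block (adjusted p = 0.017).

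Among the falls, Rnf227 and Alg13 were the established symbols chosen by their size. Rnf227, a RING finger gene whose record RefSeq lists as noncoding, read -1.05, -1.17 and -1.59 under PBS and -2.09, -2.85 and -2.86 under CoCl2. Its change was -1.33 ± 0.29, a 2.51-fold fall (adjusted p = 0.023). Alg13, a noncoding variant of the gene for a subunit of the enzyme that adds the second sugar of N-glycans, fell by 0.78 (SE 0.16, adjusted p = 0.017), from -1.91, -1.91 and -2.31 to -2.65, -2.94 and -2.88. That their groups did not overlap was a condition of their choice. Both calls were lost without floxed PBS array 1 or 2 or floxed CoCl2 array 2 or 3. Gata6os, antisense to the smooth muscle transcription factor gene Gata6, has a pair of probes. The dimmer one fell by 1.37 (adjusted p = 0.014), and the brighter one, which represents the gene here, differed by -0.95 (adjusted p = 0.067). Of the 10 falls, 1 was undetected in both floxed groups and gives no fold. 2700099C18Rik, a transcribed pseudogene at Mettl4, fell from 0.90, 1.10 and 1.10 to -0.35, -0.49 and -0.86, by 1.60 (SE 0.25, adjusted p = 0.0054).

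In deleted cells, the noncoding transcripts moved widely with CoCl2 and mostly downward. Of the 556 tested, 76 rose and 231 fell, where 52.8% of all tested probes were called, 20.1% higher and 32.7% lower. Their median change was -0.36, against -0.13 over all tested probes. The split moved with the scale: 21 rose and 274 fell when scaled to E1A controls above background, and 99 rose and 159 fell after quantile normalization. It moved with the filter as well, and with no filter on dim probes, which tests all 869, 197 rose and 237 fell. That E1A scaling put the median of all tested probes at -0.48. Of the 231 falls, 115 were undetected on all 3 deleted CoCl2 arrays, meaning not well above background there, so their change has only a bound. Of these, 1 was undetected under PBS as well. The bound was at least 1.00-fold to at least 11.8-fold lower for 69 of them (median 1.44), and for 45 it fell under 1 and gives no fold. Among the 284 transcripts detected on all 12 arrays, a set that leaves out those lost under CoCl2, 66 rose and 55 fell (23.2% and 19.4%), against 28.4% and 18.7% of all probes detected on every array.

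Array 3 of deleted PBS cells, the one on the slide of the CoCl2 arrays, often lay between the groups. For 161 of the 231 falls (69.7%) it was the lowest of the 3 PBS arrays. The falls were called with these arrays in the fit, so their distance from array 3 is a description. All 3 CoCl2 arrays lay below it for 214 of them (92.6%), against 95.2% of the falls over all tested probes, with a median difference of -1.19 within that slide, against -1.52 from PBS arrays 1 and 2. For 69 of the 76 rises (90.8%) all 3 CoCl2 arrays lay above it, against 96.2% over all tested probes. Array 3 was the lowest PBS array for 72.2% of the falls over all tested probes. With the slide as a fixed block, 26 transcripts rose and 117 fell.

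The rises in deleted cells included Norad and both tested short structural RNAs, Rpph1 and Scarna13. Norad, a cytoplasmic lncRNA induced by DNA damage that binds Pumilio proteins, read 2.98, 3.15 and 3.35 under PBS and 4.15, 4.36 and 4.03 under CoCl2. It rose by 1.02 ± 0.17, or 2.02-fold (adjusted p = 0.00065, limma), and by 0.83 against the PBS array of the same slide. In floxed cells it read 3.05, 2.97 and 2.64 under PBS and 3.51, 3.27 and 3.29 under CoCl2, sets that did not overlap but whose difference of 0.47 did not pass (adjusted p = 0.16). The difference between the genotypes' changes was 0.54 (95% interval 0.02 to 1.07, adjusted p = 0.12). Rpph1, the RNA of ribonuclease P, which trims the 5′ ends of transfer RNAs, read 4.99, 5.00 and 5.08 under PBS and 5.94, 6.12 and 5.76 under CoCl2. It rose by 0.92 ± 0.16 (adjusted p = 0.00097), and its floxed arrays read 4.64, 4.73 and 4.56 under PBS and 5.09, 4.63 and 5.11 under CoCl2. Scarna13, a small Cajal body RNA of the class that guides modification of spliceosomal RNAs, rose by 1.14 ± 0.30 (adjusted p = 0.0082), from -3.16, -3.90 and -3.07 to -2.54, -1.96 and -2.21. Its call was lost with E1A controls above background as the scale and with the slide as a fixed block.

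Lncpint rose by 0.90 ± 0.23 in deleted cells (adjusted p = 0.0072), from 2.20, 2.32 and 1.82 to 3.20, 3.29 and 2.54. The difference between this and its change in floxed cells was 0.01 (95% interval -0.71 to 0.73). Gt(ROSA)26Sor, the broadly active locus used for transgene insertion, rose by 0.89 ± 0.20 (adjusted p = 0.0036), from -2.17, -2.58 and -1.79 to -1.37, -1.26 and -1.23. Brip1os, which overlaps Ints2 and Med13, rose by 1.04 ± 0.21 (adjusted p = 0.0021). Morrbid, a lncRNA known for limiting the lifespan of myeloid cells, has a pair of probes. The brighter rose by 0.86, from 3.96, 3.86 and 3.79 to 5.02, 4.59 and 4.60, and the dimmer differed by 0.47 and was not called. Hk1os, antisense to the hexokinase gene Hk1, rose by 0.81 ± 0.21 (adjusted p = 0.0071). The rises of Gt(ROSA)26Sor and Hk1os were not called with the E1A controls above background as the scale, nor was that of Lncpint, and those of Gt(ROSA)26Sor, Brip1os and Hk1os were not called with the slide as a fixed block. Sprr2g and Vmn1r-ps79, transcribed pseudogenes, rose by 1.58 and 1.24.

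**Figure D2:**
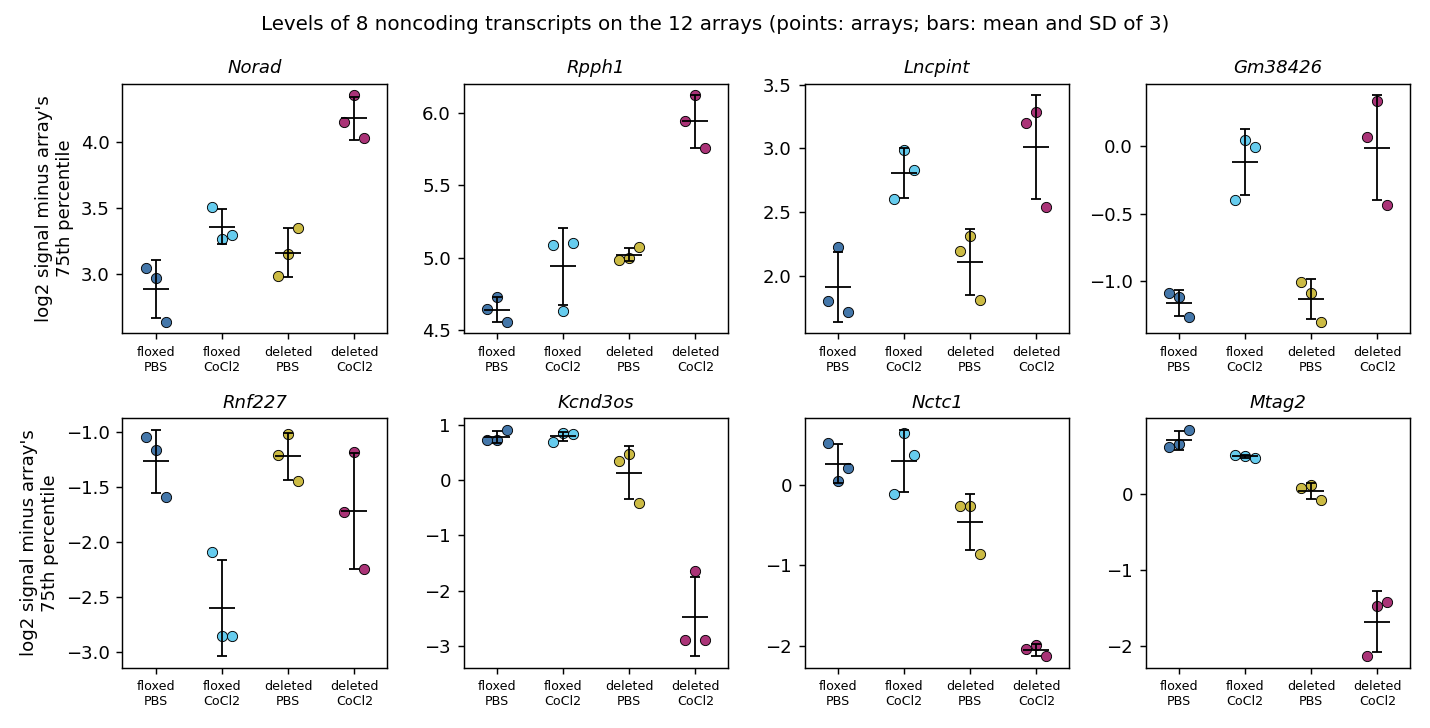
Level of 8 transcripts on each of the 12 arrays (log2 signal minus the array's 75th percentile, vertical axis) by group, with points for arrays and bars for the mean and SD of 3. Norad and Rpph1 stood highest in deleted CoCl2 cells, Lncpint and Gm38426 were high under CoCl2 in both genotypes, Rnf227 had its lowest mean in floxed CoCl2 cells, and Kcnd3os, Nctc1 and Mtag2 were lowest in deleted CoCl2 cells.

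The falls in deleted cells included 16 of the 35 tested antisense and opposite-strand transcripts. That was 45.7%, against 41.5% of all tested noncoding transcripts and 32.7% of all tested probes. Kcnd3os, antisense to the potassium channel gene Kcnd3, read 0.35, 0.48 and -0.41 under PBS and -2.89, -1.64 and -2.89 under CoCl2. It fell by 2.61 (SE 0.32, 6.12-fold, adjusted p = 0.00014), and by 2.06 within the slide. In floxed cells it read 0.73, 0.73 and 0.92 under PBS and 0.70, 0.85 and 0.84 under CoCl2, so these groups overlapped. Mtag2, which overlaps Ppfia3 and Lin7b, fell by 1.73 (SE 0.19, adjusted p = 7.6e-05), from 0.08, 0.12 and -0.08 to -2.14, -1.48 and -1.43. Hnf4aos, antisense to Hnf4a, the gene of a liver and gut transcription factor, fell by 1.65 (SE 0.25, adjusted p = 0.00036), from 0.20, 0.54 and 0.02 to -1.20, -1.80 and -1.18. Cdrt4os1 and Plxna4os1 fell by 2.86 and 2.52 on fewer detected arrays, being above background on 1 and 2 of the 3 CoCl2 arrays.

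Nctc1 and Mhrt were also among the falls. Nctc1, transcribed from a mesodermal enhancer region between Igf2 and Mrpl23, read -0.27, -0.26 and -0.86 under PBS and -2.04, -1.99 and -2.13 under CoCl2, all above background. It fell by 1.59 (SE 0.23, 3.00-fold, adjusted p = 0.0003). Mhrt, antisense to the cardiac myosin gene Myh7, read -1.27, -1.50 and -1.60 under PBS and -3.17, -2.85 and -3.73 under CoCl2, where 1 of 3 arrays was above background. It fell by 1.79 (adjusted p = 0.00014). Mir1a-1hg, host of the miR-1a-1-5p shown above, read -3.47, -3.89 and -4.17 under PBS and was undetected on the CoCl2 arrays (-5.63, -4.06 and -5.22). Its sets overlapped, its bound was under 1, and the call was lost without deleted PBS array 1 or deleted CoCl2 array 1, so no fold is given. Hottip, at the far end of the HoxA cluster, was also not above background on any CoCl2 array, and its bound was under 1 as well.

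Of 29 tested noncoding records of coding genes, 3 rose and 10 fell (34.5%, against 32.7% of all tested probes). The 2 given here were chosen by their size. The Scnn1b record, of the gene for a subunit of the epithelial sodium channel, read 0.32, 0.42 and -0.33 under PBS and -2.39, -1.37 and -1.87 under CoCl2, a fall of 2.01 (SE 0.28, adjusted p = 0.00026). That of Mphosph9, a centrosome gene, fell by 2.01 (SE 0.38, adjusted p = 0.0012), from 0.58, 0.46 and -0.33 to -2.09, -1.69 and -1.54. Whether these probes also see the coding messenger RNAs was not tested. The falls with the largest fitted changes were chosen after their values were seen, and not all have a measured size. 9030619P08Rik, a transcribed pseudogene near Ly6l, read -1.02, -0.75 and -0.99 under PBS and was not above background under CoCl2 (-5.67, -5.68 and -5.17), which makes it at least 5.16-fold lower (adjusted p = 3.2e-06). Gm7788 was at least 11.8-fold lower (adjusted p = 0.00021), reading 0.97, 1.07 and -1.22 under PBS and -4.38, -5.19 and -3.22 under CoCl2. Here too PBS array 3 lay apart from the other two. A record without a symbol in RefSeq's table read 2.71, 2.40 and 2.14 under PBS and -3.76, -0.74 and -1.04 under CoCl2, above background on 2 of 3 arrays, and fell by 4.26 (SE 0.61, adjusted p = 0.00028). Of the 231 falls, 56 were detected on all 6 arrays of deleted cells. Among them the largest was that of Gm6642, a transcribed pseudogene within Prkg1, the gene of the cGMP-dependent kinase of smooth muscle. It read 1.06, 0.93 and 0.83 under PBS and -2.64, -1.71 and -1.35 under CoCl2, 7.15-fold lower (adjusted p = 4.6e-05).

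The CoCl2 changes of the 2 genotypes are differences between separate arrays, but both were tested with the same spread per probe, pooled over all groups. The calls of the 2 genotypes are therefore not independent. The part of the pooled spread in their overlap was not tested. Of the 13 floxed rises, 11 were rises in deleted cells too (84.6% of 13 and 14.5% of 76). Of the 10 floxed falls, 7 were falls in deleted cells too (70.0% of 10 and 3.03% of 231). Over all tested probes the shares were 93.2% and 65.9% of the floxed rises and falls. 2310015A10Rik was the only transcript called in opposite directions: it rose in floxed cells, from -3.28, -3.03 and -3.08 to -2.57, -2.42 and -2.29, and fell in deleted cells, from -2.95, -3.22 and -3.12 to -4.31, -3.85 and -3.99. Its deleted CoCl2 levels lay under each array's lowest signal well above background (-3.36, -3.50 and -3.01). The size of that fall was therefore not measured. Gm38426 rose by 1.12 ± 0.20 in deleted cells and by 1.04 in floxed cells, and the difference of 0.08 has a 95% interval of -0.55 to 0.71. 4930556M19Rik rose by 1.64 ± 0.25 in deleted cells, where it reached 4.40, 3.81 and 3.79. 2700099C18Rik fell by 1.14 in deleted cells, from 0.75, 0.79 and 1.16 to -0.20, -0.81 and 0.29.

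**Figure D3:**
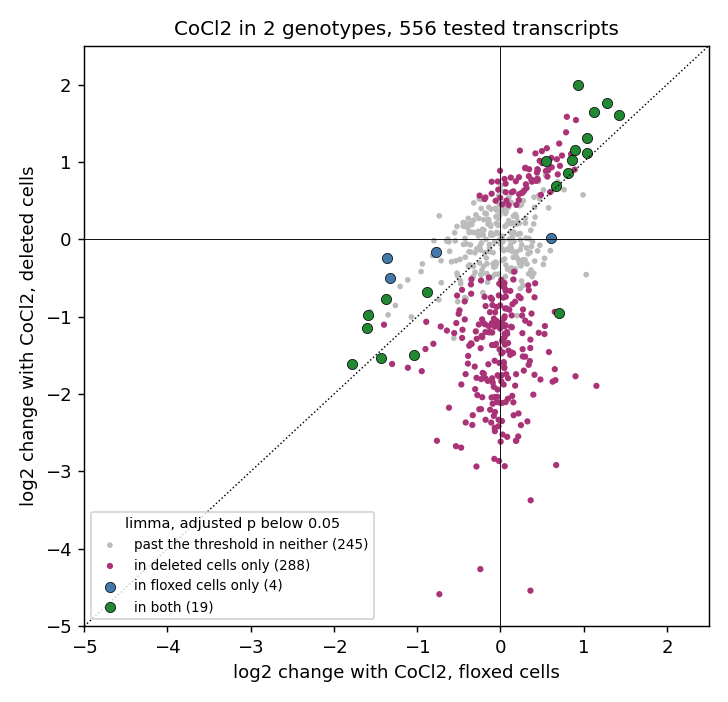
Log2 change with CoCl2 in floxed cells (horizontal axis) and deleted cells (vertical axis) for the 556 tested transcripts, 1 point each, coloured by which genotype passed the threshold, with a dotted line of equal change. Most points called in deleted cells lie below 0 on the vertical axis near 0 on the horizontal axis, while 19 passed in both genotypes, 1 of them in opposite directions.

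Without CoCl2, few noncoding transcripts passed the threshold between the genotypes. Of the 556, 2 were higher and 11 lower in deleted than in floxed cells, where 1.48% of all tested probes were called, 0.533% higher and 0.946% lower. At an unadjusted p under 0.05 (limma), 123 of the 556 differed. The test pooled the spread of all 12 arrays, and the noncoding probes' median SD was 0.36 in deleted CoCl2 cells. In the floxed and deleted PBS cells compared here it was 0.19 and 0.22. The low count is therefore not read as little change, and the part of this spread in it was not tested. No slide held both groups, so slide and genotype cannot be told apart within a slide here. With the slide as a random block 0 were called, and 0 were called with all E1A controls as the scale. Leaving out floxed PBS array 1 or 2 also left 0 calls, as did leaving out floxed CoCl2 array 2 or 3, or deleted PBS array 1, 2 or 3. It was 2 without floxed PBS array 3, and 35, 23 and 29 without floxed CoCl2 array 1, deleted CoCl2 array 1 and deleted CoCl2 array 2.

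The 6 lower transcripts with established symbols all had an adjusted p between 0.044 and 0.049. Scnn1b read 1.41, 1.29 and 1.60 in floxed cells and 0.32, 0.42 and -0.33 in deleted cells, lower by 2.46-fold (adjusted p = 0.049). The pseudogene Kif4-ps read -0.92, -1.26 and -0.88 against -2.09, -1.90 and -2.14, a difference of -1.03 (adjusted p = 0.047). Pmis2, a transcript expressed in testis, read -1.61, -1.81 and -1.97 against -2.84, -2.45 and -3.13. The cytochrome pseudogene Cyp2d13 differed by -0.95 (adjusted p = 0.044). Dlx4os, at a homeobox gene, and Serpina3h, of a protease inhibitor family, differed by -1.42 and -1.41, with 1 of 3 deleted arrays above background. Of the transcripts that were higher, 4833412C05Rik was not above background on any floxed PBS array (-4.75, -5.07 and -4.56) and read -3.16, -3.56 and -2.63 in deleted cells, at least 2.00-fold higher (adjusted p = 0.044).

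Under CoCl2, the genotypes differed widely. Of the 556, 119 were higher and 245 lower in deleted than in floxed cells, where 67.8% of all tested probes were called, 31.9% higher and 36% lower. The median difference was -0.37, against 0.06 over all tested probes. The split moved with the scale, to 28 higher and 281 lower with E1A controls above background and to 179 higher and 194 lower with all E1A controls, which put the median of all probes at -0.22 and 0.48. No slide held both groups, and with the slide as a fixed block 13 were higher and 121 lower. With no filter on dim probes 218 were higher and 280 lower. Among the 284 transcripts detected on all 12 arrays, 101 were higher and 60 lower (35.6% and 21.1%), against 44.7% and 20.3% of all probes so detected. Of the 245 that were lower, 124 were undetected on every deleted CoCl2 array, and the bound was under 1 for 19 of them and 1.00 to 34.3-fold for the other 105 (median 1.58).

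Of the 8 tested host genes of small nucleolar RNAs, whose introns give the guides for ribosomal RNA modification, 5 were higher in deleted than in floxed cells under CoCl2 and 0 lower, where 31.9% of all tested probes were higher. Their median difference was 0.75, against 0.06 over all tested probes and 0.44 over those detected on all 12 arrays, of which 44.7% were higher. Snhg16 read -1.14, -1.30 and -1.15 in floxed CoCl2 cells and -0.36, 0.46 and -0.01 in deleted CoCl2 cells, and its PBS arrays read -1.03, -1.50 and -1.52 in floxed and -0.48, -0.67 and -0.62 in deleted cells. Under CoCl2 it was 2.34-fold higher in deleted cells (1.23 ± 0.21, adjusted p = 0.00039). Snhg3, Snhg5, Snhg7 and Snhg9 were higher by 0.96, 0.95, 0.68 and 0.83. The call of Snhg7 (adjusted p = 0.044, limma) was kept under 11 of 24 alternative settings. Of the 5 called hosts, 3 had sets of arrays that did not overlap. All 5 kept their sign on every scale, but with the E1A controls above background Snhg16 alone was called, and Snhg7 turned to -0.086 with the slide as a fixed block. The other members, Snhg8, Snhg18 and Rian, differed by 0.46, 0.51 and 0.31 and were not called. Under PBS all 8 also read higher in deleted cells, though 0 were called. Their median difference there was 0.31, against 0.01 over all tested probes and 0.15 over those detected on all 12 arrays. The difference between the genotypes' CoCl2 effects was called for 0 of the 8. With CoCl2 in deleted cells, 1 of the 8, Snhg16, rose (0.62, adjusted p = 0.027) and 0 fell, and the median change of 0.15 turned to -0.20 with E1A controls above background. In floxed cells 0 of 8 were called, and 1, Rian, fell with the array number as a block.

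Of the 3 tested records at RNA processing genes, 2, those of Hnrnpa1 and Rbmx, were higher in deleted than in floxed cells under CoCl2 and 0 lower. Of all tested probes 31.9% were higher, and of those detected on all 12 arrays 44.7%, so nothing is read from this count. The noncoding variant of Hnrnpa1, a splicing regulator, read 1.45, 0.76 and 1.19 in floxed CoCl2 cells and 2.69, 2.41 and 2.34 in deleted CoCl2 cells, higher by 2.54-fold (adjusted p = 0.00018). That of Rbmx, an X-linked member of the same protein family, was higher by 1.20 (adjusted p = 0.0041). With E1A controls above background as the scale Hnrnpa1 alone of the 3 was called. The third, Rbm3os, differed by 0.20 and was not called. Firre, an X-linked lncRNA that organises nuclear domains, was higher by 0.98 ± 0.20 (adjusted p = 0.0014), with -1.73, -1.83 and -2.18 in floxed and -0.61, -0.88 and -1.30 in deleted CoCl2 cells. With CoCl2 in deleted cells it rose by 0.54, from -1.57, -1.50 and -1.32 (adjusted p = 0.044), a call kept under 11 of 25 alternative settings. Alg13, which fell with CoCl2 in floxed cells, was higher by 1.15 ± 0.16 (adjusted p = 8.7e-05), reading -1.65, -1.74 and -1.62 in deleted CoCl2 cells. The pseudogenes Vmn1r-ps79, Pisd-ps3 and Bambi-ps1 were higher by 1.79, 1.38 and 1.15.

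On the lower side, Kcnd3os was 9.65-fold lower in deleted than in floxed cells under CoCl2 (-3.27, SE 0.32, adjusted p = 1.3e-05), and Scnn1b was 8.19-fold lower. Nctc1, at -0.12, 0.64 and 0.37 in floxed CoCl2 cells, was 5.08-fold lower (adjusted p = 1.3e-05). Sox1ot, which overlaps the neural transcription factor gene Sox1, was at least 1.78-fold lower, Pcsk2os2, antisense to a prohormone convertase gene, at least 2.02-fold, and Ppp1r2-ps7 at least 3.86-fold. Mir1a-1hg was at least 1.33-fold lower and Hottip at least 1.17-fold. Gm7788 read 1.04, 2.22 and 2.17 in floxed CoCl2 cells and was at least 34.3-fold lower in deleted cells (adjusted p = 1.5e-05).

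The difference between the CoCl2 effects of the genotypes was past the threshold for 121 of the 556, where 20.5% of all tested probes were called, 2.84% higher and 17.7% lower. Of the 121, 120 changed less upward or more downward in deleted cells and 1 the other way, and 70 were undetected on all deleted CoCl2 arrays, while 27 were detected on all 3. The transcript that went the other way carries no symbol in RefSeq's table. It read 0.35, 0.33 and 0.67 under PBS and 2.56, 2.45 and 2.32 under CoCl2 in deleted cells, and its difference of effects was 1.06. It rose in floxed cells as well, by 0.93. Among transcripts detected on every array, the difference was -2.62 for Kcnd3os (SE 0.45, adjusted p = 0.0044), -1.63 for Nctc1 (adjusted p = 0.0074) and -1.51 for Mtag2 (adjusted p = 0.0047). With no filter on dim probes, which admits probes that no group detected on all 3 arrays, the split was 87 higher and 126 lower. That fit kept 118 of the 121 calls. With array weights the split was 41 and 197, and the weights were 17.1 for deleted PBS array 1 and 0.32 to 2.11 for the others. The near absence of calls the other way thus depends on both choices. With the slide as a fixed block 2 of the 121 remained. The comparisons with deleted CoCl2 cells all rest on the same 3 arrays. The count was 79 without floxed CoCl2 array 2 and 78 without deleted PBS array 1.

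By class, with each symbol counted by its brightest probe, antisense and opposite-strand transcripts were the largest list, with 56 on the array and 35 tested. With CoCl2 in deleted cells 4 rose and 16 fell. The share that fell was 45.7%, against 41.5% of all tested noncoding transcripts and 32.7% of all tested probes, and the median change was -0.52, against -0.36 and -0.13. In floxed cells 0 were called, the dimmer Gata6os probe being left out by this count, and 1, Sox5os3, fell with the array number as a block. Falls outnumbered rises on every scale tried, from 9 against 5 with normexp to 20 against 1 with E1A controls above background. Under CoCl2, 5 were higher and 20 lower in deleted than in floxed cells, and without it 1, Dlx4os, was lower. The share lower under CoCl2 was 57.1%, against 44.1% of all tested noncoding transcripts and 36% of all tested probes. Pseudogenes of the list, 26 tested of 45, gave 3 rises and 7 falls with CoCl2 in deleted cells (26.9% fell, below the share of all tested probes). Between the genotypes under CoCl2, 10 were higher and 7 lower, or 38.5% and 26.9%, against 31.9% and 36% of all tested probes. That balance turned to 4 higher and 11 lower with E1A controls above background. Records at cell cycle and DNA repair genes, 3 tested of 3, all fell with CoCl2 in deleted cells, on every scale tried and with the slide as a fixed block. They were those of Mphosph9, the kinase pseudogene Cdk3 (at least 1.22-fold lower) and Kif4-ps (-1.29). These small lists stand beside the 32.7% of all tested probes that fell, and nothing is read from their counts alone. Of 5 records at ion channel and solute carrier genes, 1 rose (Slc22a13b) and 3 fell. Of 8 at transcription and chromatin genes, 2 fell, and both of the 2 tested at interferon and immune genes fell. The lists of records at HIF-1 target genes and at redox genes had 0 members on the array.

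**Figure D4:**
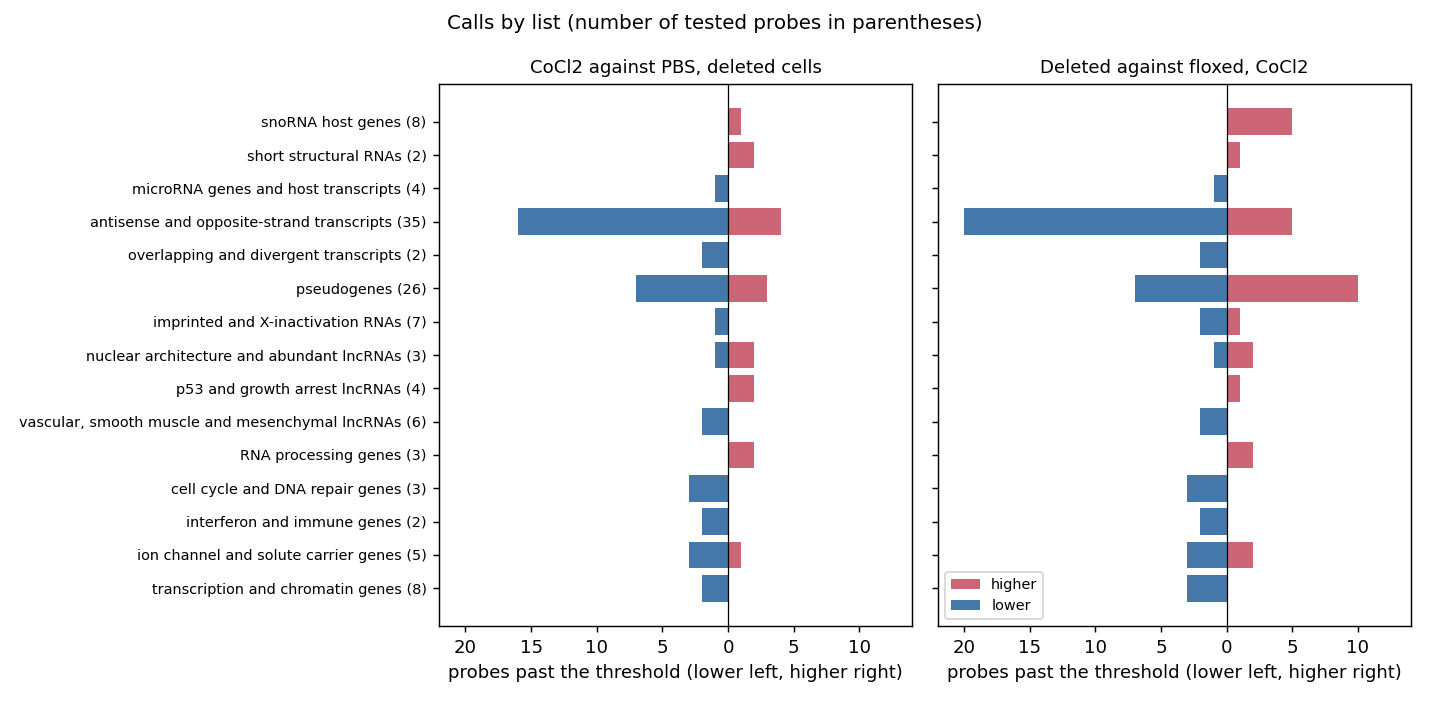
Number of probes past the threshold in each list, lower to the left and higher to the right, for CoCl2 against PBS in deleted cells (left panel) and for deleted against floxed cells under CoCl2 (right panel), with the number tested in parentheses. Antisense transcripts gave 16 falls and 4 rises on the left, and host genes of small nucleolar RNAs gave 5 higher and 0 lower on the right.

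Of 7 tested imprinted and X-inactivation transcripts, 0 were called with CoCl2 in floxed cells, where 4.94% of all tested probes were called. In deleted cells 1 fell and 0 rose, and the share that fell was 14.3%, against 32.7% of all tested probes. Nothing is read from counts in so small a list. The transcript that fell was Kcnq1ot1, the paternally expressed antisense transcript that silences neighbouring genes. It differed by -0.52 (adjusted p = 0.044) but by 0.15 after quantile normalization and by 0.038 with normexp background correction added, so its direction turned with the scale. It was undetected on the deleted CoCl2 arrays, which makes it at least 1.07-fold lower on the 75th-percentile scale. For Meg3 and Rian, maternally expressed from the same imprinted cluster, the groups overlapped and no comparison was called. Meg3 read 0.63, -0.54 and -0.22 in floxed PBS cells, 0.04, -0.85 and -0.76 in floxed CoCl2 cells, -0.12, -0.31 and 0.68 in deleted PBS cells, and -0.95, -0.82 and 0.41 in deleted CoCl2 cells. Rian read 1.68, -0.24 and 0.59, then 1.00, -0.88 and -0.32, then 0.57, 0.45 and 2.05, and then -0.53, -0.22 and 1.48 in the same order of groups. In both transcripts the same array of a genotype stood high under PBS and CoCl2, array 1 in floxed cells and array 3 in deleted cells. Taken by array number, both read lower under CoCl2 in 3 of 3 floxed pairs, by 0.31 to 0.59 for Meg3 and 0.64 to 0.91 for Rian. They also did so for 3 of 3 numbers in deleted cells, but there the numbers were not shown to pair arrays. With the array number as a block, Rian fell in floxed cells by 0.74 (adjusted p = 0.041, against 0.72 without the block), and Meg3 differed by -0.48 (adjusted p = 0.15). Airn, which silences Igf2r on the paternal allele, differed by 0.54 with CoCl2 in deleted cells (adjusted p = 0.13).

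Of 6 tested vascular and mesenchymal lncRNAs, 2 fell with CoCl2 in deleted cells, Mhrt and Fendrr. That was 33.3%, against 32.7% of all tested probes, so nothing is read from the count. Fendrr, a lateral mesoderm lncRNA beside Foxf1, read -2.52, -2.48 and -3.14 under PBS and -5.60, -2.77 and -5.28 under CoCl2, where 1 of 3 arrays was above background and lay within the PBS range. Its call (adjusted p = 0.019) was lost without deleted CoCl2 array 1 or 3 or deleted PBS array 1 or 2. Trp53cor1, known as lincRNA-p21, read 0.97, 1.08 and 0.82 under PBS and 1.06, 1.29 and 1.14 under CoCl2 in deleted cells and was not called, with a difference of 0.21 (adjusted p = 0.26). Of the 4 tested p53 and growth arrest lncRNAs 2, Norad and Lncpint, rose with CoCl2 in deleted cells, where 20.1% of all tested probes rose. Lncpint was put on that list after its values were seen, so nothing is read from this count. Of 3 Hox cluster transcripts Hottip alone was tested.

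Transcripts that hold microRNAs went different ways. E130102H24Rik, which spans miR-101a near the adenylate kinase gene Ak4, rose with CoCl2 in deleted cells by 1.18 ± 0.20 (adjusted p = 0.00065), from -0.94, -0.48 and -0.89 to 0.45, 0.57 and 0.20, and read -0.81, -0.55 and -1.03 and then -0.04, -0.17 and -0.50 in floxed cells. Aopep, whose span holds the miR-23b, miR-27b and miR-24-1 cluster, fell by 0.89 (adjusted p = 0.0034), from 1.93, 1.79 and 1.92 to 0.74, 0.89 and 1.33. Lncppara, with the let-7c-2 and let-7b genes, read -0.67, -0.76 and -1.04 under PBS and -1.21, -0.82 and -0.70 under CoCl2 and was not called. Mir9-3hg, at 1.29, 1.32 and 1.67 and then 0.95, 1.28 and 1.84, was not called either. Dleu2, which spans miR-15a and miR-16-1, was not tested.

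The fall in deleted cells was read against signal level, since dim probes are the first to reach background. The tested probes were split into 4 equal groups by their mean over the 6 floxed arrays, which the comparison does not use. The noncoding transcripts had 214 in the dimmest group, then 145, 113 and 84. Their median change with CoCl2 in deleted cells was -0.45, -0.65, -0.31 and 0.00 from the dimmest to the brightest, against -0.50, -0.32, -0.08 and 0.23 for all tested probes. Both series rose toward brighter probes, apart from the dimmest noncoding group, and these values are a description with no test. By source of the record, 41.5% of the tested NR transcripts fell, against 52.5% of 7015 tested RefSeq model (XR) probes and 37.5% of 20097 tested probes of the NONCODE catalogue.

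**Figure D5:**
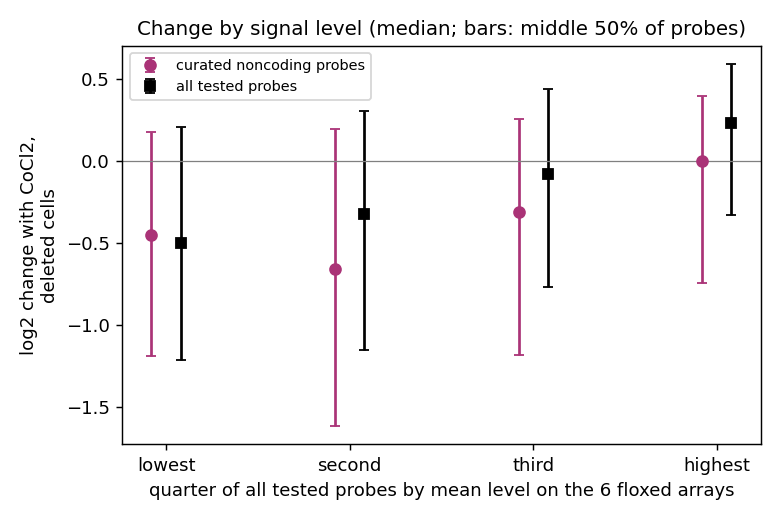
Median log2 change with CoCl2 in deleted cells (vertical axis) in 4 groups of tested probes ordered by mean level on the 6 floxed arrays (horizontal axis), for curated noncoding probes (circles) and all tested probes (squares), with bars for the middle 50% of probes. The noncoding medians were -0.45, -0.65, -0.31 and 0.00 from dim to bright.

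Different records of one symbol did not always move together. Of 10 symbols with more than 1 tested probe, 6 had the same sign in all probes for CoCl2 in deleted cells and 9 did in floxed cells. The pair for R74862 went opposite ways, both past the threshold in deleted cells. The brighter read 1.81, 1.78 and 1.21 under PBS and -0.15, 0.01 and 0.39 under CoCl2, and the dimmer -2.74, -2.66 and -2.59 and then -1.33, -2.06 and -1.89. Both probes of 1500011B03Rik rose in deleted cells, by 0.61 and 1.31, and the dimmer also rose in floxed cells, by 1.04, where the brighter differed by 0.14.

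The letters ACGTG or GCGTG, on either strand, were in 46.7% of the promoters of 27025 genes in RefSeq's table and in 46.2% of those of 526 matched noncoding members. Among transcripts that rose with CoCl2 in deleted cells, 27 of 40 promoters held them (67.5%), and among those that fell 61 of 149 (40.9%). The promoters of the first group also had more CG pairs, with a median of 16 in the 300 bases against 7, and 59.5% G and C against 52.7%. Both motif cores contain the letters CG, and the part of CG content in these shares was not tested. Among transcripts that rose in floxed cells 4 of 6 promoters held a core, and among those that fell 5 of 5.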

How the data were processed

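Per the labels' protocols, total RNA was extracted with Trizol and Cy3-labelled cRNA was hybridised to one-colour Agilent arrays. Per the file headers, the deposited scanner files came from Feature Extraction 11.5.1.1 (protocol GE1_1105_Oct12; the submitters' processing notes name version 9.1), and the array design names mm9. The processed signal is a background-corrected intensity deposited by the authors. The authors' deposited value table holds the same values on a log2 scale, centred near each array's 75th percentile, as a comparison with the scanner files showed, and served as an alternative.

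Here log2 of that signal was averaged per probe, and each array's 75th percentile was subtracted. The filter required detection above background on the 3 arrays of any group and kept 70909 of 97836 probes. They were tested by limma 3.58.1 (R 4.3.3; functions lmFit and eBayes; a mean for each group, all 12 arrays together), with Benjamini-Hochberg adjustment and a threshold of 0.05. The fit was tested on simulated data, and no result here rests on that test. It takes 1 spread per probe for all groups. The noncoding probes' median SD was 0.36 in deleted CoCl2 cells and 0.19 to 0.25 in the other groups. The number of arrays limits the precision. Probes undetected on every array of the lower group have only a bound on their fold, set from each array's lowest signal well above background. Same-numbered floxed arrays deviated together (r of 0.40, 0.41 and 0.45), and same-numbered deleted arrays did not (-0.14, 0.28 and 0.24). Within a genotype the number as a block moved the floxed falls from 10 to 18 and no total by over 1.5 times. Arrays of a group correlated at 0.969 to 0.994, and none were identical.

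Members, lists and alternatives were chosen with earlier results of these data known. Lncpint was added to its list, which held it under an older symbol, after its values were seen. Named genes were called list members and, among established symbols whose groups did not overlap, the 10 largest called changes each way; other symbols were chosen after their values were seen or by the microRNAs their span holds. Symbols, promoters and microRNAs are RefSeq's (GRCm38.p6).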

Additional observations from a re-analysis of the deposited data

Results flagged for a closer look

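The change with CoCl2 differed between the genotypes for 25 transcripts with established symbols, by limma's test of the difference itself at an adjusted p under 0.05, and each value below is the log2 change in deleted cells minus that in floxed cells. Antisense and overlapping transcripts gave -2.85 for Cdrt4os1, -2.62 for Kcnd3os, -2.48 for Pitpnm2os1, -2.06 for Pcsk2os2, -1.89 for Mhrt, -1.70 for Hnf4aos, -1.67 for Kank4os, -1.50 for Sox1ot and -1.02 for Mkln1os. Other lncRNAs gave -1.63 for Nctc1, -1.51 for Mtag2, -1.32 for Hottip and -0.98 for Lncenc1. Pseudogenes gave -3.05 for Olfr29-ps1, -2.68 for Ppp1r2-ps7, -1.85 for Krt74, -1.61 for Cdk3, -1.49 for Mx2 and -1.32 for Kif4-ps. Noncoding records of protein-coding genes gave -2.40 for Mphosph9, -1.75 for Ager, -1.74 for Scnn1b, -1.54 for Chchd7, -0.95 for Esr2 and -0.95 for Aopep. Of the 25, 12 were undetected on every deleted CoCl2 array, so that their differences are not measured sizes, and 9 were detected on all 3. Among the 12 were Olfr29-ps1, Ppp1r2-ps7, Krt74, Cdk3, Mx2, Pcsk2os2, Kank4os, Sox1ot and Hottip.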

How the results depend on the processing

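Counts of called transcripts are given here per comparison. For CoCl2 in floxed cells (23), quantile normalization gave 36, normexp with it 38, E1A controls above background 15, all E1A controls 11, the slide as a fixed block 2 and array weights 93, and leaving out single arrays gave 2 to 33. For CoCl2 in deleted cells (307), probes detected on all 12 arrays gave 128 and the fixed slide block 143. For deletion under PBS (13), the 75th percentile of probes detected on all arrays gave 29, quantile normalization 24, normexp 34, E1A controls above background 42, all E1A controls 0, no filter on dim probes 5, the slide as a random block 0 and array weights 199, and leaving out single arrays gave 0 to 35. The fixed slide block gave 16, of which 3 were shared with the 13. For deletion under CoCl2 (364), probes detected on all 12 arrays gave 162 and the fixed slide block 134. For the difference of the CoCl2 effects (121), quantile normalization gave 70, normexp 49, no filter 213, probes detected on all arrays 26, the fixed slide block 2, the random slide block 75 and array weights 238, and leaving out single arrays gave 78 to 166. Array weights were 17.1 for deleted PBS array 1 and 0.32 to 2.11 for the others. Fewer probes were tested under the filter on all 12 arrays, and otherwise the cause was not tested. The replicate block gave 24, 314, 11, 374 and 126 in the same order, and within genotypes 30, 322 and 132 for the comparisons it can fit. In deleted cells, whose numbers were not shown to pair arrays, that block gave -0.53 for Meg3 (adjusted p = 0.026) and -0.78 for Rian (adjusted p = 0.0058) with CoCl2. Of the values of single named transcripts under alternatives, 2965 kept their call, 526 lost it and 6 changed sign: Kcnq1ot1 with CoCl2 in deleted cells (0.15 after quantile normalization, 0.038 after normexp), Speer5-ps1 (0.079 and 0.028, likewise) and Wt1os (0.047 after quantile normalization) for deletion under CoCl2, and Snhg7 there with the fixed slide block (-0.086). The 2965 include the deposited value table, which holds the same values, so no call could be lost there. They also include fits without arrays of groups outside a comparison, where the change itself cannot move. The total therefore overstates the stability that was tested. Signal over background limits the falls in deleted CoCl2 cells, 115 of 231 being undetected there.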
